A study of Homo sapiens with 4 samples.

Results

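The comparison described here sets the nasopharyngeal carcinoma cell line HK1EBV against the line HK1 after 24 h of exposure to 110 µM caffeic acid phenethyl ester (CAPE). It uses 2 of the 4 arrays of the study, chosen by their titles, and the other 2 arrays, of the same lines after 24 h with dimethyl sulfoxide (DMSO) at 0.1%, show which differences the lines had without the compound. Each of the 4 groups had 1 array, so no value below has a replicate check and no test was made. Both lines are labelled as derived from nasopharyngeal carcinoma and were grown in DMEM with 10% fetal bovine serum, and HK1EBV is read from its name as HK1 carrying Epstein-Barr virus. The labels say no more of the virus or of how HK1EBV was made, and no viral transcript was analysed here. Values are in log2 units, in which a difference of 1 is 2-fold, and a line difference is always HK1EBV minus HK1.

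Epstein-Barr virus is a herpesvirus that persists in a latent state in the tumour cells of most undifferentiated nasopharyngeal carcinomas, where it makes a few viral proteins such as EBNA1 and LMP1 and many noncoding RNAs. LMP1 is known to signal through NF-κB and to change adhesion and motility genes of epithelial cells. CAPE, a phenolic ester of propolis, is known as an inhibitor of NF-κB activation and as an electrophile that reacts with thiols. Cells sense low oxygen through prolyl hydroxylases, which mark hypoxia-inducible factor for destruction while oxygen is present. New secretory proteins leave the endoplasmic reticulum (ER) for the Golgi apparatus in coated vesicles. When amino acids or folding capacity run short, the factor ATF4 switches on genes of amino acid supply. Members of these pathways are among the genes described below.

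The sequences that help in reading these groups are 5 promoters and 1 mature microRNA. Each promoter shown holds a motif marked in it, so the 5 are examples and not a sample of their groups. The promoters run from 250 bases before to 20 bases after the gene start in RefSeq on GRCh38.p14, and are written on the strand of the gene. SEC23A, KDELR3 and ERO1B act in the ER or its transport and were higher in HK1EBV under CAPE. Capitals mark the unfolded protein response element TGACGTGG in SEC23A (chr14:39103216-39103485, minus strand) and, on the opposite strand, in KDELR3 (chr22:38467846-38468115, plus strand). In ERO1B (chr1:236281939-236282208, minus strand) they mark the ER stress response element, which is CCAAT and CCACG with a gap of 9 free bases between them, also on the opposite strand.
SEC23A: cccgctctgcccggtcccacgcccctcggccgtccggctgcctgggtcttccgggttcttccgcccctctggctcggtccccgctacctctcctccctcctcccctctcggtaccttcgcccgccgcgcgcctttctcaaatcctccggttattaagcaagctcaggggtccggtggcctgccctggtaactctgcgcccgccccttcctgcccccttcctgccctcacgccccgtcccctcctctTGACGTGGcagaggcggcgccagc
KDELR3: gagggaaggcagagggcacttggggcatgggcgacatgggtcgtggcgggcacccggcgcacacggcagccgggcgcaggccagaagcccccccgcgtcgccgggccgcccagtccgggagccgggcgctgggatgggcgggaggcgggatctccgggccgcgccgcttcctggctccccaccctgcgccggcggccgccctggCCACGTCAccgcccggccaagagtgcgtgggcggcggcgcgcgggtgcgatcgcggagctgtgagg
ERO1B: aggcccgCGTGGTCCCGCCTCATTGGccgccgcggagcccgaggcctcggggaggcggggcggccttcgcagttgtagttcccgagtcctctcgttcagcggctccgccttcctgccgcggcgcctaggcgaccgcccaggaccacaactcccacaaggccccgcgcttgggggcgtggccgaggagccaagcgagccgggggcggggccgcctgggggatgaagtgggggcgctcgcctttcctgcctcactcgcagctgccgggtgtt
PLOD2, a collagen enzyme, and HK2, a glycolytic one, stood lower in HK1EBV under CAPE. Their line differences were -1.02 and -0.74, the latter short of 2-fold. Capitals mark the hypoxia response core ACGTG on either strand in PLOD2 (chr3:146161165-146161434, minus strand) and HK2 (chr2:74833877-74834146, plus strand).
PLOD2: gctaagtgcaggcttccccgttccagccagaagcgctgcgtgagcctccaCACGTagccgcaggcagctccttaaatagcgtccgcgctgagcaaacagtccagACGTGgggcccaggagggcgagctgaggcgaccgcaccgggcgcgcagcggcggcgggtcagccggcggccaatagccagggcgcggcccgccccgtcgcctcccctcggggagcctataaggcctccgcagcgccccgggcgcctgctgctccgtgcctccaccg
HK2: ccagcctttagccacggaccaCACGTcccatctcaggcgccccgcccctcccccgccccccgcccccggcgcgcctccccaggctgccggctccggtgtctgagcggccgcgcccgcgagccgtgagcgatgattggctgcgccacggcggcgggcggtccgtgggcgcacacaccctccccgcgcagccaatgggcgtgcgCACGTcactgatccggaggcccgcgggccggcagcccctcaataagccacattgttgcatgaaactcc
The gene of microRNA 21 was among those apart under CAPE. Its 5′ mature form (chr17:59841273-59841294, plus strand, GRCh38.p14) is shown with the seed, bases 2 to 8, in capitals.
miR-21-5p: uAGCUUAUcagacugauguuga

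These motifs are common or rare to different degrees, and a match is a description of letters only. The core ACGTG, 5 bases searched on both strands of 300-base windows, was in 21.6% of all 27305 promoters, in 25.4% of the 11880 promoters found for genes tested in 46.2% of the 26 found for the hypoxia list and in 59.0% of the 61 found for the ER to Golgi list. TGACGTGG, which contains that core, was in 0.795% of all promoters and in 10 of the 61 found for the ER to Golgi list. The ER stress response element was in 0.0806% of all promoters. Promoters were found for 24 of the 33 genes higher and 25 of the 35 lower in HK1EBV only under CAPE. Of these, 10 (41.7%) and 7 (28.0%) held ACGTG, and 1 and 0 held TGACGTGG. The core marked in PLOD2 and HK2 was thus found in a larger share of the higher genes than of the lower ones.

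Many of the genes that separated the lines under CAPE separated them in DMSO as well, among them most of those furthest apart. A smaller set was 2-fold apart with the compound and close without it. Of 15194 genes tested, 141 (0.928%) stood 2-fold or more higher in HK1EBV and 171 (1.13%) lower, 312 (2.05%) in all. In bulk RNA, fewer cells of a kind and less RNA per cell cannot be told apart. In DMSO, 136 (0.895%) were higher and 148 (0.974%) lower. These shares over all genes are the background for the list counts below. Both treatments shared 58 genes higher and 83 lower, which is 45.2% of the genes apart under CAPE and 49.6% of those apart in DMSO. No gene (0) was 2-fold apart in opposite directions in the treatments.

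A gene was called apart only under CAPE when its line difference was at least 1 in size with CAPE and under 0.5 in size with DMSO. This held for 33 genes higher in HK1EBV (0.217%) and 35 lower (0.23%). The name is one of size: without replicates, no line difference is shown to depend on the compound. Another 50 higher and 53 lower genes lay between 0.5 and 1 in DMSO. The counterpart class, apart only in DMSO, held 23 genes higher and 20 lower. Just inside the 2-fold limit were ZNF737 at 1.0001 and CALCRL at -1.0002, and just outside it LRRC28 at 0.9993 and ATP8B1-AS1 at -0.9996.

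**Figure D1:**
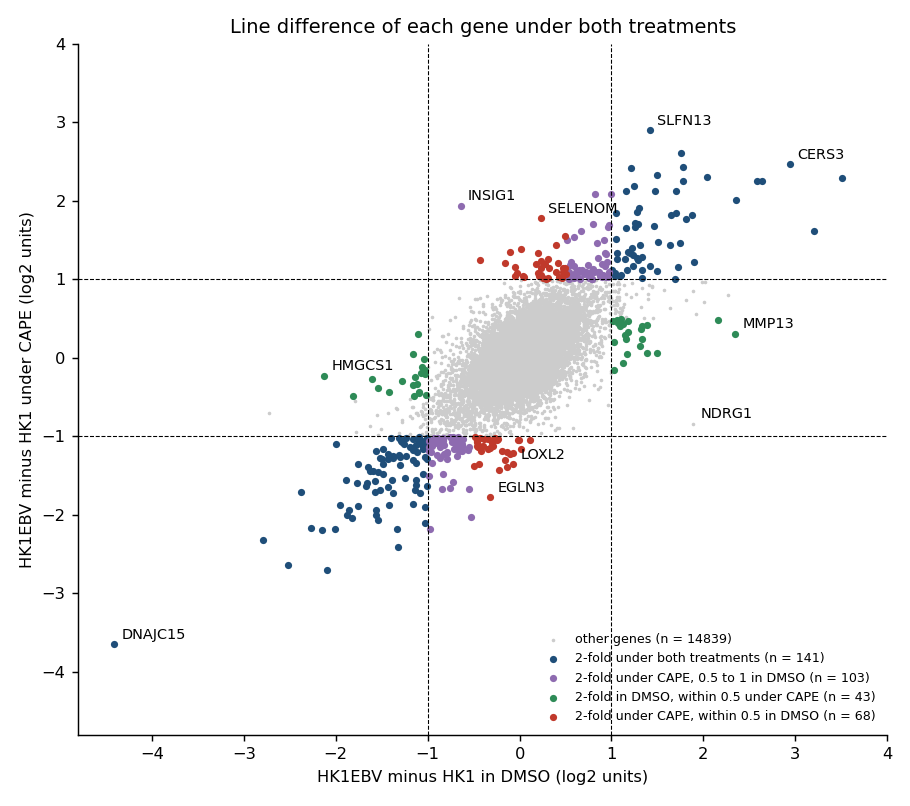
Each point is 1 of 15194 genes, with its line difference in DMSO on the x axis and under CAPE on the y axis, both in log2 units; dashed lines mark 2-fold. The 141 genes apart under both treatments lie along the rising diagonal, while the 68 genes apart only under CAPE lie above or below the middle of the plot.

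The middle of the distribution was close to 0 under CAPE, with a median line difference of -0.00476 and 95% of genes between -0.76 and 0.77. The median size of a line difference was 0.203 under CAPE and 0.181 in DMSO. An array-internal measure of error came from 208 genes with a further probe set above the level filter, where both probe sets of a gene disagreed by a median of 0.157 and by 0.736 at the 95th percentile. Of the 3 called genes among them, PSPH and VOPP1 were called by both probe sets, and NAXD was called by its brighter one at -1.07 but stood at -0.05 in the other. The array medians lay between 2.23 and 2.27, and the number of arrays limits the precision. Of the epithelial and squamous markers the keratin gene KRT5 read 9.54 on the HK1 CAPE array and 10.0 on the HK1EBV CAPE array. The 8 members tested had a median line difference of 0.46 in DMSO and 0.000435 under CAPE, with 7 above 0 in DMSO and 4 under CAPE, and the part of this move in the results below was not tested. Fibroblast, leukocyte, B cell and endothelial markers that were tested stayed at or under 3.64 on both, and none (0) was 2-fold apart.

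The genes lower in HK1EBV only under CAPE were mostly genes that stood higher in HK1 with the compound. Of these 35 genes, 33 were higher in HK1 with CAPE than with DMSO, 12 of them by at least 2-fold, and 23 were lower in HK1EBV with CAPE, 1 of them by at least 2-fold. The median change with CAPE was 0.63 in HK1 and -0.25 in HK1EBV. The class rule favours this arrangement, since a gene enters only if its change with CAPE is lower in HK1EBV than in HK1. The 33 genes higher in HK1EBV showed the other arrangement, which the rule likewise favours. Of these, 32 were higher in HK1EBV with CAPE than with DMSO, 6 of them by at least 2-fold, and the median change was 0.82 in HK1EBV and -0.12 in HK1. In 22 of the 33 and in 21 of the 35 the lines went in opposite directions with CAPE. These counts follow in part from the rule, and the same counts over all genes were not made.

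**Figure D2:**
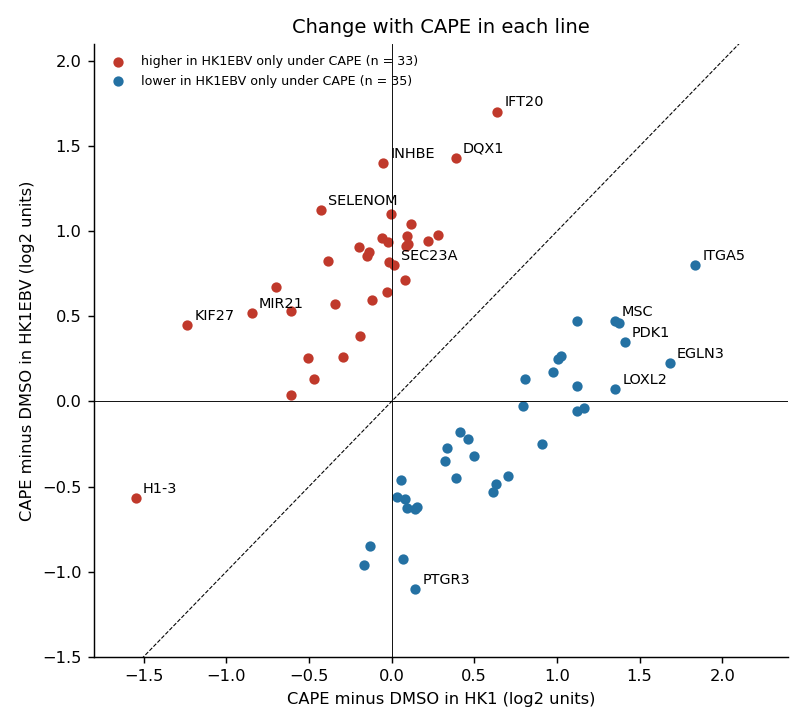
The change with CAPE (CAPE minus DMSO, log2 units) in HK1 on the x axis and in HK1EBV on the y axis for the 68 genes apart only under CAPE; the dashed line marks equal change. Genes lower in HK1EBV reach 1.84 on the x axis (ITGA5), and genes higher in HK1EBV reach 1.70 on the y axis (IFT20).

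The gene furthest apart among the 35 that were lower belongs to the response to low oxygen. EGLN3, an oxygen-sensing prolyl hydroxylase that marks hypoxia-inducible factor for destruction and is itself a target of that factor, was 3.43-fold lower in HK1EBV under CAPE. It read 2.34 in HK1 and 2.02 in HK1EBV with DMSO, and 4.03 and 2.25 with CAPE. The HK1 CAPE array thus stood above the other 3, which lay within 0.32 of each other. PDK1, a kinase that inhibits pyruvate dehydrogenase, read 4.88 and 4.74 with DMSO and 6.29 and 5.09 with CAPE. Its line difference was -1.20 under CAPE against -0.14 in DMSO. The same array was again the highest of the 4.

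Other members of the list of hypoxia targets and glycolysis differed by less. Of its 30 members tested, 2 were 2-fold lower (EGLN3 and PDK1) and 0 higher under CAPE, and its median line difference was -0.32, against 0.09 in DMSO and -0.00476 for all genes under CAPE. The difference was below 0 in 23 of 30 under CAPE and in 10 of 30 in DMSO. Over all 15194 genes it was below 0 in 7702 under CAPE. The list's median change with CAPE was 0.73 in HK1 and 0.30 in HK1EBV. HK2, a hexokinase of glycolysis, read 5.81 and 5.93 with DMSO and 6.95 and 6.22 with CAPE, so that the difference went from 0.13 to -0.74. NDRG1, a stress-responsive gene used as a hypoxia marker, read 5.94 and 7.82 with DMSO, and 9.29 and 8.46 with CAPE. Its line difference was thus 1.89 in DMSO and -0.84 under CAPE, with opposite signs. The demethylase gene KDM3A, at -0.59, the prolyl hydroxylase gene EGLN1, at -0.55, and the mitophagy receptor genes BNIP3 and BNIP3L, both at -0.48, were lower under CAPE, with -0.01 to 0.26 in DMSO. P4HA1, which hydroxylates proline in collagen, was higher with CAPE in both lines alike, from 5.93 to 7.65 in HK1 and from 5.99 to 7.54 in HK1EBV. PFKFB3, which makes an activator of glycolysis, stood higher in HK1EBV at 0.60.

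Enzymes and receptors of the extracellular matrix were a further group among the 35. LOXL2, a lysyl oxidase that cross-links collagen, read 4.99 and 4.92 with DMSO and 6.34 and 4.99 with CAPE, 2.55-fold lower in HK1EBV. ITGA5, the α5 chain of the fibronectin receptor, read 4.94 and 4.93 with DMSO and 6.78 and 5.73 with CAPE. Both genes were nearly equal in the lines without the compound, and ITGA5 was higher with CAPE in both. PLOD2, a lysyl hydroxylase of collagen, read 6.69 and 6.43 with DMSO and 7.72 and 6.70 with CAPE, a line difference of -1.02. With the arrays shifted to one median it was -0.99, short of 2-fold. LTBP1, which holds latent TGF-β in the matrix, differed by -1.04 (-0.999 with the shift), and ECM1, a secreted matrix glycoprotein, by -1.04. Of 21 collagen-modifying enzymes, a list written after the values were seen, 2 (LOXL2 and PLOD2) were 2-fold lower and 0 higher, and the median was 0.01 under CAPE and 0.02 in DMSO. The median of this list was thus close to that of all genes.

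Over all genes, 1.13% were 2-fold lower and 0.928% higher under CAPE. In the list of mesenchymal genes 4 of 23 were 2-fold lower under CAPE, LOXL2, ITGA5, THBS1 and VIM, and 0 higher. In DMSO, 1 was 2-fold lower and 2 higher. THBS1, which encodes the matrix protein thrombospondin-1, was 2-fold lower in DMSO as well, at -1.13 against -1.62 under CAPE. VIM, which encodes vimentin, stood at -0.90 in DMSO, short of 2-fold, and at -1.24 under CAPE. FSCN1, the actin-bundling protein fascin and a gene linked to LMP1, read 7.66 and 7.24 with DMSO and 7.80 and 6.61 with CAPE. Here the HK1EBV CAPE array was the lowest of the 4, where for LOXL2 and ITGA5 the HK1 CAPE array was the highest. Of 20 host genes linked to LMP1, 4 were 2-fold lower (TNFAIP2, VIM, FSCN1 and TNFAIP3) and 0 higher, with a median of -0.26 against -0.06 in DMSO. In DMSO, 3 of the 20 were 2-fold lower and 0 higher. TNFAIP3 was short of 2-fold under CAPE, at -0.99, with the arrays shifted to one median.

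Desmosome genes, which build the spot junctions of squamous epithelium, were on balance higher in HK1EBV in DMSO and lower under CAPE. The median of 10 genes was -0.37 under CAPE and 0.17 in DMSO, and all 10 had a lower line difference under CAPE. DSG3, a desmoglein, was the 1 member 2-fold lower, at -1.14, and stood at -0.99 in DMSO. DSC2, a desmocollin, read 4.99 and 5.16 with DMSO and 5.85 and 5.23 with CAPE. Both lie on chromosome 18, as does DSG2, at -0.996 under CAPE and -0.81 in DMSO. All tested genes of that chromosome had a median of -0.37 under CAPE and -0.38 in DMSO. The part of chromosome position in the desmosome values was not tested. The plaque proteins JUP and PKP1 differed by 0.47 and 0.86 in DMSO and by -0.25 and 0.01 under CAPE.

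**Figure D3:**
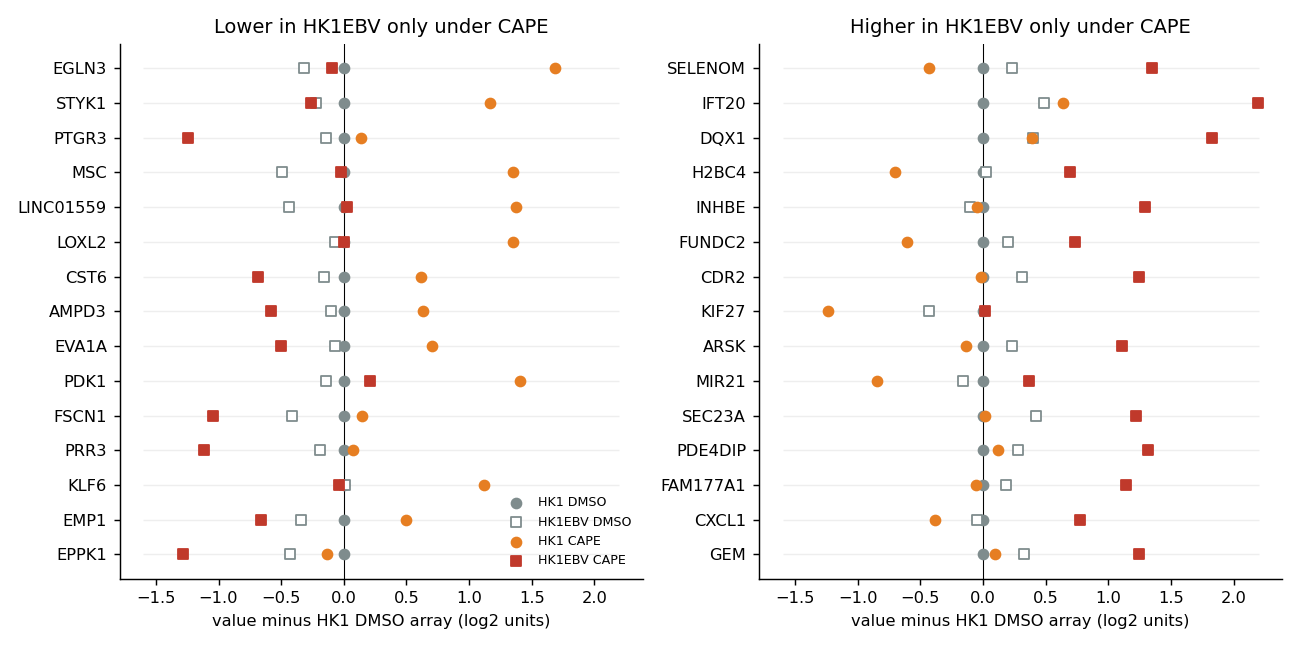
Values of the 15 lowest (left) and 15 highest (right) genes apart only under CAPE on the 4 arrays, each given as its distance in log2 units from the HK1 DMSO array; circles are HK1, squares are HK1EBV, and filled orange and red symbols are CAPE. For EGLN3, STYK1, MSC, LINC01559, LOXL2, PDK1 and KLF6 the HK1 CAPE circle stands alone on the right, and for INHBE, CDR2, SEC23A and FAM177A1 the HK1EBV CAPE square does.

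Feedback genes of the MAP kinase pathway, most of which are switched on by ERK signalling and dampen it, were on balance lower in HK1EBV under both treatments and more so with CAPE. Of 19 members tested, 4 were 2-fold lower under CAPE and 0 higher, against 1.13% and 0.928% of all genes. In 18 of the 19 the difference lay below 0, against 7702 of all 15194 genes. The median was -0.62 under CAPE and -0.27 in DMSO. DUSP5, a nuclear ERK phosphatase and the 1 member apart only under CAPE, read 5.22 and 4.77 with DMSO and 6.03 and 4.90 with CAPE. The cytoplasmic ERK phosphatase DUSP6 differed by -1.11 (-0.82 in DMSO), the inhibitor SPRY4 by -1.20 (-0.78) and the transcription factor ETV5 by -1.23 (-1.43). The exception in direction was DUSP1, at 0.75 and 0.64.

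Some ligands of the EGF receptor family were lower as well. Of 13 genes of the receptors, ligands and regulators, 4 were 2-fold lower and 0 higher under CAPE, against 1.13% and 0.928% of all genes. Under CAPE 9 of the 13 lay below 0 and 4 above, and in DMSO 3 were 2-fold lower. The list was centred lower under CAPE, with a median of -0.40 against -0.14 in DMSO. The ligand genes NRG1, HBEGF and TGFA differed by -1.87, -1.64 and -1.62, and by -1.42, -1.43 and -1.01 in DMSO, so these differences were mostly present without the compound. The feedback inhibitor ERRFI1 was at -1.05 (-0.84). EPHA2, another receptor tyrosine kinase, was apart only under CAPE by a narrow margin, at -1.001 with -0.49 in DMSO, and at -0.97 with the arrays shifted to one median. The kinase-like gene STYK1 read 2.81 and 2.58 with DMSO and 3.97 and 2.55 with CAPE, 2.69-fold lower in HK1EBV. Its HK1 CAPE value stood above the other 3.

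Genes of cell death and inflammation were also among the 35. BAK1, which opens the outer mitochondrial membrane in apoptosis, read 4.56 and 4.16 with DMSO and 4.65 and 3.53 with CAPE. It was nearly level in HK1 and lower in HK1EBV with the compound. Of 27 apoptosis regulators and death receptors, 3 were 2-fold lower and 0 higher under CAPE, against 1.13% and 0.928% of all genes. The list medians were -0.12 under CAPE and -0.10 in DMSO. In DMSO, 1 was 2-fold lower and 1 higher. The 3 genes lower under CAPE were BAK1 and the TRAIL receptors TNFRSF10B and TNFRSF10A, of which only BAK1 is among the 35. TNFRSF10B differed by -1.26 under CAPE and -1.03 in DMSO, and TNFRSF10A by -1.02 and -0.83. TNFRSF10A stood at -0.99 with the arrays shifted to one median. TNFSF10, the ligand of these receptors, was higher in HK1EBV by 0.85 under CAPE and by 1.88 in DMSO. PTGES, which makes prostaglandin E2, read 5.36 and 5.12 with DMSO and 5.20 and 4.16 with CAPE. F3, the tissue factor that starts blood clotting, read 9.40 and 8.93, then 9.43 and 8.37. In these genes as well it was the HK1EBV CAPE array that stood lowest.

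The list of NF-κB targets and subunits, the pathway for which CAPE is known, was centred somewhat below all genes. Its median was -0.18 under CAPE, against -0.00476 for all genes, and -0.05 in DMSO. The difference was below 0 in 21 and above 0 in 8 under CAPE, and in 18 and 10 in DMSO. From DMSO to CAPE it rose in 16 members and fell in 13, with a median move of 0.08. In DMSO, 4 members were 2-fold lower and 0 higher. Under CAPE, 2 of 29 were 2-fold lower (TNFAIP2 and TNFAIP3, both also in DMSO) and 1 higher. The 1 higher was CXCL1, a chemokine that attracts neutrophils. It read 3.17 and 3.12 with DMSO and 2.78 and 3.94 with CAPE. The chemokine gene CCL20, in contrast, was apart only in DMSO, where it read 4.58 and 2.98, against 4.65 and 4.39 with CAPE. The subunit genes RELA, RELB and NFKB2 differed by -0.05, -0.05 and -0.17 under CAPE, and NFKB1 by -0.71.

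Several genes that carry cargo out of the ER were higher in HK1EBV under CAPE. SEC23A, an inner coat subunit of the COPII vesicles that leave the ER, read 6.37 and 6.79 with DMSO and 6.39 and 7.59 with CAPE, 2.31-fold higher in HK1EBV. ARF4, a small GTPase of the Golgi, read 8.41 and 8.70 with DMSO and 8.63 and 9.64 with CAPE, and was short of 2-fold, at 0.98, after quantile normalization. YIF1B, a membrane protein of the same route, read 4.20 and 4.40, then 4.29 and 5.37. For all 3 genes HK1 was nearly level and HK1EBV higher with the compound.

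A list of 76 genes of ER to Golgi transport, written after these values were seen, had 71 tested. Of these, 5 were 2-fold higher (KDELR3, TMED3, SEC23A, YIF1B and ARF4) and 0 lower under CAPE. The median line difference was 0.39 against 0.10 in DMSO, and 60 of 71 had a higher difference under CAPE. The median change with CAPE was 0.43 in HK1EBV and 0.19 in HK1. KDELR3, a receptor that returns escaped ER proteins, had the largest difference, from 2.75 and 3.90 with DMSO to 3.72 and 5.84 with CAPE. It was thus higher with the compound in both lines and 2-fold apart under both treatments. The coat subunits COPB2 and COPG1 differed by 0.96 and 0.76 under CAPE and by 0.53 and 0.42 in DMSO. LMAN1, a cargo receptor, stood at -0.22 and -0.53. Since members were chosen after SEC23A and its neighbours in function had been seen, the counts describe the list and support nothing beyond it.

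Other genes of the secretory route were apart only under CAPE. ARL1 and MON2, which act at the trans-Golgi network, differed by 1.14 each, and CALU, a calcium-binding protein of the ER, by 1.05 (0.998 after quantile normalization). ERO1B, an oxidase that supplies disulfide bonds in the ER, read 0.85 and 1.25 with DMSO and 1.13 and 2.23 with CAPE. The first of these values lies below the level filter of 0.997, near the bottom of the scale. SELENOM, a selenoprotein of the ER, was the highest gene of the class at 3.43-fold. It read 3.19 and 3.42 with DMSO, and 2.77 and 4.55 with CAPE. Of the ER chaperones and sensors of the unfolded protein response, 0 of 21 were 2-fold apart, with a median of 0.08 against -0.01 in DMSO.

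**Figure D4:**
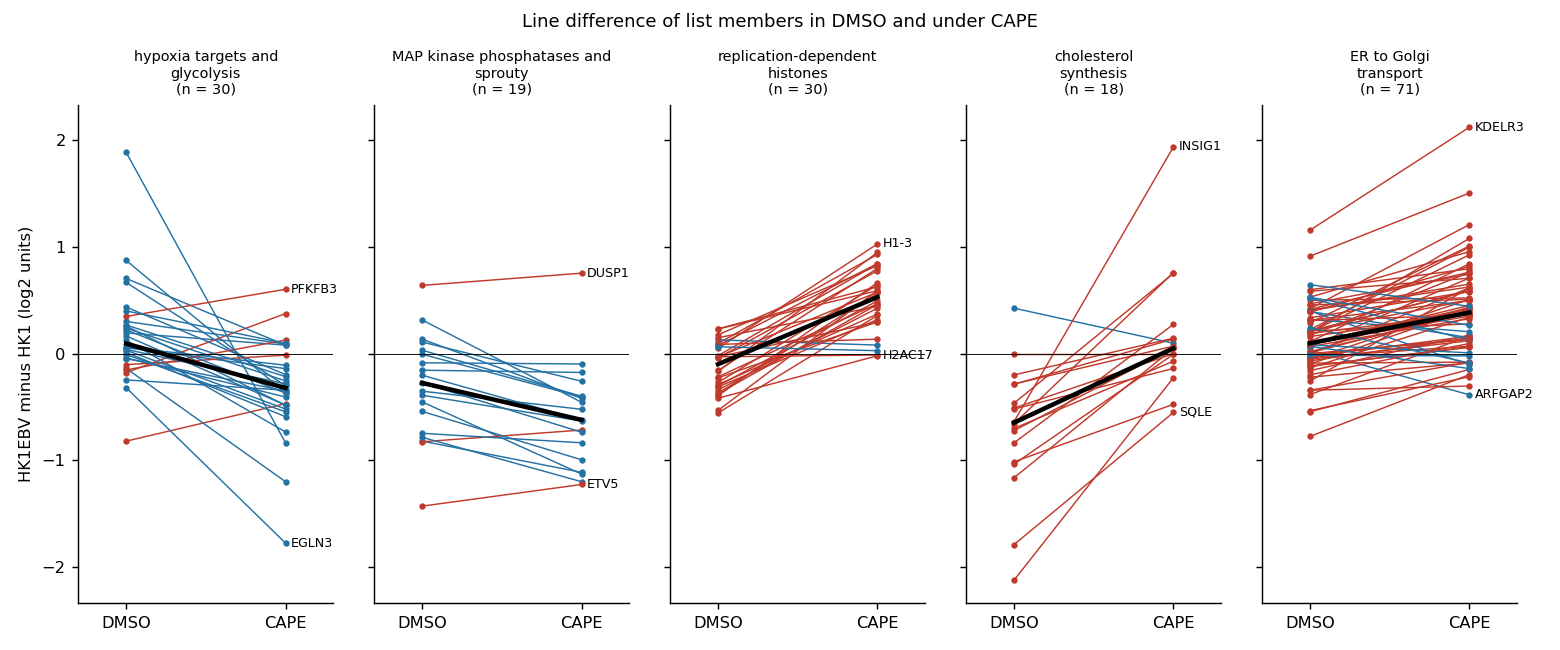
Line difference (HK1EBV minus HK1, log2 units) of each tested member of 5 lists in DMSO (left of each panel) and under CAPE (right); red lines went up, blue lines down, and the black line joins the list medians. The hypoxia median goes from 0.09 to -0.32, that of the histones from -0.10 to 0.53 and that of cholesterol synthesis from -0.65 to 0.05; the 5 lists were picked after their values were seen.

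Genes of the ATF4 response, which restores amino acid supply under stress, were on balance lower in HK1EBV in DMSO and about level under CAPE. The median of 27 members was -0.35 in DMSO and -0.01 under CAPE, and the median change with CAPE was 0.84 in HK1EBV and 0.45 in HK1. Under CAPE, 2 were 2-fold higher (KLHL24 and INHBE) and 1 lower (STC2). INHBE, an activin subunit induced by ATF4, read 1.21 and 1.11 with DMSO and 1.16 and 2.51 with CAPE, 2.54-fold higher. All but the HK1EBV CAPE value lie near the level filter of 0.997. DDIT3, the stress factor CHOP, was higher with CAPE in both lines, from 4.03 to 5.43 in HK1 and from 3.93 to 6.33 in HK1EBV. ASNS, asparagine synthetase, went from 7.34 to 7.57 in HK1 and from 6.36 to 7.94 in HK1EBV, so that its line difference turned from -0.98 to 0.37. CHAC1, a glutathione-degrading enzyme, was apart only in DMSO, at -1.28 against -0.29.

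Enzymes that make serine split. PSAT1, the aminotransferase of the pathway, read 6.95 and 6.92 with DMSO and 6.75 and 7.83 with CAPE, and was apart only under CAPE at 1.08. PHGDH and PSPH, the steps before and after it, were lower in HK1EBV under both treatments. PHGDH stood at -2.38 in DMSO and -1.71 under CAPE, and PSPH at -1.65 and -1.39. PSPH lies on chromosome 7, as do LANCL2, at -2.18 under CAPE, and CCT6A, at -1.72, also lower in both treatments. Of the genes 2-fold apart in both treatments, chromosome 7 held 9 of the 83 lower and 3 of the 58 higher. It held 665 of the 15168 placed genes tested. The part of chromosome position in the PSPH values was not tested. Of 13 serine and one-carbon enzymes, 1 was 2-fold higher and 3 lower (PHGDH, PSPH and TYMS) under CAPE.

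The replication-dependent histone genes were the list with the highest median under CAPE. It was 0.53, against -0.10 in DMSO, with 28 of 30 higher in their line difference under CAPE. At 2-fold, 1 of 30 was higher and 0 lower. The median change with CAPE was -0.83 in HK1 and -0.23 in HK1EBV, so the values were lower with CAPE by more in HK1. The linker histone gene H1-3, the 1 past 2-fold, read 7.10 and 7.15 with DMSO and 5.55 and 6.58 with CAPE. H2BC4, a histone gene outside the list, read 3.53 and 3.55 with DMSO and 2.82 and 4.22 with CAPE. Because histone genes share nearly the same sequence, the signal of one copy cannot be told firmly from that of another. Lists of the cell cycle gave, at G1/S and DNA replication, a median of -0.08 under CAPE and 0.12 in DMSO, and at G2/M and mitosis 0.28 and 0.26, and the part of cell cycle state in the histone values was not tested.

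Genes of the primary cilium were named among the 33 after their values were seen. IFT20 and IFT52 belong to the transport complex that builds the cilium, INVS encodes a protein of its base segment, and KIF27 is a kinesin related to a ciliary motor. IFT20 read 3.97 and 4.46 with DMSO and 4.60 and 6.16 with CAPE, 2.94-fold higher in HK1EBV. KIF27 read 3.50 and 3.06, then 2.26 and 3.51, so the difference there came mostly from the HK1 CAPE array. IFT52 and INVS differed by 1.02 each.

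MIR21, the gene of microRNA 21, which is widely known as a growth-promoting microRNA in carcinomas, went in opposite directions in the lines. Its probe set read 3.62 and 3.47 with DMSO and 2.78 and 3.99 with CAPE, 2.31-fold higher in HK1EBV. The gene VMP1, of the same locus on chromosome 17, read 8.71 and 8.57 with DMSO and 8.82 and 8.97 with CAPE, a line difference of 0.15. The sources used here do not say whether the probe set reads the hairpin, the primary transcript or the mature form printed above.

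Cholesterol synthesis showed the reverse pattern, a line difference in DMSO that was small under CAPE. Of 18 genes, 5 were 2-fold lower in DMSO and 0 under CAPE, and the median went from -0.65 to 0.05. HMGCS1, an early enzyme of the pathway, read 7.24 and 5.11 with DMSO and 4.88 and 4.65 with CAPE. CYP51A1, a demethylase of the sterol ring, read 8.07 and 7.03, then 6.93 and 6.92. In both, the HK1 DMSO array stood above the other 3. Not all members followed this. DHCR7, an enzyme of the last step, went from -0.66 in DMSO to 0.76 under CAPE and IDI1, an isomerase of the pathway, from -0.46 to 0.75, while SQLE, squalene epoxidase, was at -1.79 and -0.55. INSIG1, which holds the sterol sensor in the ER, had the largest difference under CAPE. It read 5.74 and 5.10 with DMSO and 3.99 and 5.93 with CAPE, so that its line difference was 1.94 under CAPE and -0.64 in DMSO. Fatty acid synthesis had 0 of 16 genes 2-fold apart under CAPE, with medians of 0.27 and -0.15 in DMSO.

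Matrix metalloproteinases, enzymes that cut matrix proteins, included several genes higher in HK1EBV only in DMSO. MMP13, a collagenase, read 5.19 and 7.53 with DMSO and 7.54 and 7.85 with CAPE. HK1 thus stood with the compound where HK1EBV stood without it. MMP10 read 3.41 and 4.79, then 4.53 and 4.59, and MMP1 read 7.16 and 8.49, then 7.69 and 8.10. MMP12, the macrophage elastase, differed from these, with HK1EBV lower with CAPE, at 1.17 against 2.89. HK1 read 0.73 with DMSO and 0.69 with CAPE, both below the level filter of 0.997, near the bottom of the scale. These 4 genes all lie on chromosome 11. Of 23 metalloproteinases and inhibitors, 4 were 2-fold higher and 2 lower in DMSO, and 0 higher and 2 lower under CAPE.

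Most of the largest differences under CAPE were at least 2-fold in DMSO as well. Exceptions were TNFSF18, at -2.18 under CAPE and -0.97 in DMSO, and IL10RB, at -2.03 and -0.53. DNAJC15, a mitochondrial co-chaperone on chromosome 13, read 4.97 and 0.56 with DMSO and 4.24 and 0.59 with CAPE. Both HK1EBV values lie below the level filter of 0.997. The ligand gene GAS6, also on chromosome 13, differed by -2.63 under CAPE and -2.52 in DMSO. Chromosomes 13 and 18 held 458 of 15168 placed genes (3.02%) and 31 of the 171 lower genes (18.1%), but 2 of the 35 lower only under CAPE (5.71%) and 0 of the 33 higher. On the higher side SLFN13, a tRNA-cleaving nuclease, led at 2.90, followed by MAGED1 at 2.61, the skin ceramide synthase CERS3 at 2.47 and the carnitine acetyltransferase CRAT at 2.43. SLFN13 read 1.90 and 3.32 with DMSO and 1.34 and 4.24 with CAPE. The difference was wider under CAPE for SLFN13, MAGED1 and CRAT and narrower for CERS3, which stood at 2.94 in DMSO.

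Interferon-stimulated genes, the antiviral genes switched on by type I interferon, were the list with most members higher. Of 31, 9 were 2-fold higher and 0 lower under CAPE, with 7 higher in DMSO and medians of 0.41 and 0.50. The leading members were further apart under CAPE, while the median was not. IFI44L read 3.14 and 4.35 with DMSO and 2.98 and 5.40 with CAPE, and IFIT1 read 3.97 and 5.21, then 3.45 and 5.65. IRF9, the DNA-binding subunit of the interferon-activated factor, stood at 0.79 in DMSO and 1.71 under CAPE. Members such as IFI27, BST2 and HERC6 differed by 0.03, 0.01 and 0.05 under CAPE, and IFIT3 was closer with CAPE, at 0.73 against 0.97.

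Over all lists, 48 of the 50 planned ones had at least 5 genes tested. Between DMSO and CAPE the median moved up by at least 0.3 in 4 and down by at least 0.3 in 4, and it changed sign in 12. The NRF2 and thiol antioxidant list, which answers electrophiles, had a median of 0.33 against 0.13, with 1 of 29 higher (AKR1C3, also in DMSO) and 0 lower. In DMSO, 2 were higher and 1 lower. From DMSO to CAPE the line difference rose in 15 members and fell in 14, with a median move of 0.03. Heat shock and cytosolic chaperones had 0.24 against -0.02, with DNAJB4 the 1 of 18 past 2-fold at 1.03, or 0.99 after quantile normalization. Ribosome biogenesis had -0.30 against -0.14 with 0 of 27 apart.

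**Figure D5:**
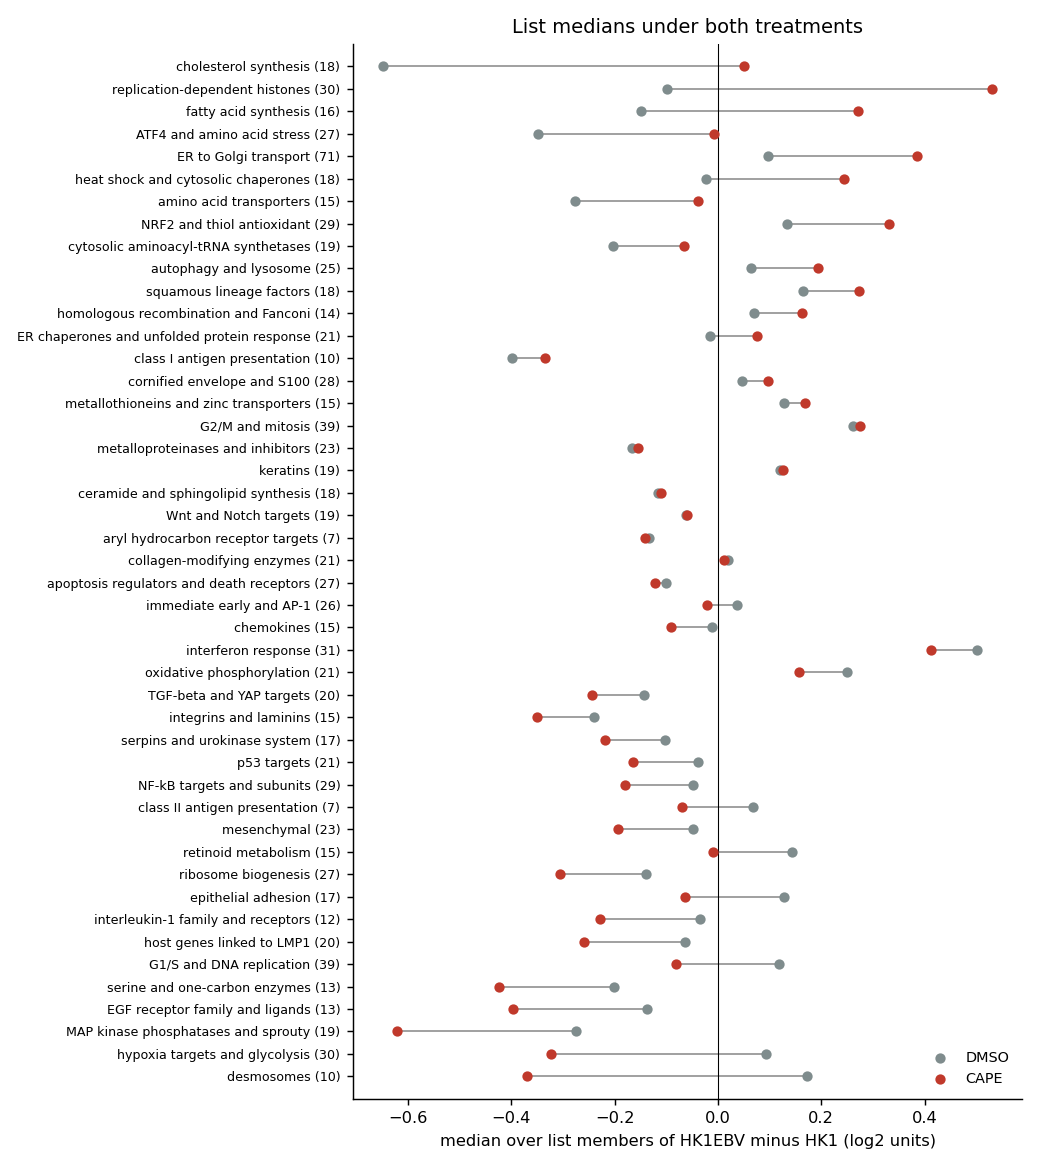
Median line difference (HK1EBV minus HK1, log2 units) of each gene list in DMSO (grey) and under CAPE (red), ordered by the move between them, with the number of genes tested in brackets. Of the lists plotted, which leave out the cell type markers, cholesterol synthesis and the replication-dependent histones have the largest moves up, to 0.05 and 0.53, and desmosomes and hypoxia targets the largest moves down, to -0.37 and -0.32.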

How the data were processed

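RNA of 4 samples was labelled with the WT PLUS kit and hybridised to single-colour arrays. The deposited values were made by RMA, per the submitters' processing notes, and read as log2 values, the scale RMA returns. The sources used here give neither the log base, nor any shift, nor which probe sets were dropped earlier. The scale ran from -0.19 to 11.9, so levels were not compared between genes. Of 25800 probe sets, 18612 had 1 gene symbol; the brightest per gene with a mean at or above the 25th percentile (0.997) left 15194 of 18323 genes. Line differences were computed in Python 3.11.15 with pandas 2.3.3, and tested on simulated data; no p-value was computed. Nothing says that arrays came from separate cultures. Gene lists, members, thresholds and alternatives (filter, array median, quantile normalization by limma 3.58.1, mean of probe sets, other folds) were chosen with earlier results of these data known. The rule named the 12 highest and 12 lowest genes under CAPE, the 15 highest and 15 lowest apart only under CAPE, the 5 highest and 5 lowest apart only in DMSO, up to 4 members per list, and preset genes; other names were chosen after their values were seen. Names and chromosomes came from the platform annotation and RefSeq.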

Additional observations from a re-analysis of the deposited data

Results flagged for a closer look

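In 9 named genes the lines moved in opposite directions with CAPE by at least 0.5 each; with 1 array a group the difference was not tested. The difference of the changes, HK1EBV minus HK1, was 2.58 for INSIG1, 1.48 for SLFN13, 1.37 for H2BC4, 1.37 for MIR21, 1.33 for FIGN and 1.14 for FUNDC2. For CST6, a cysteine protease inhibitor, MUC1, a membrane mucin, and TNFRSF10D, a decoy receptor of TRAIL, it was -1.15, -1.30 and -1.08. Outside the genes described, 62 probe sets without a single gene symbol were at least 2-fold apart under CAPE, 36 higher and 26 lower, against 52 in DMSO; these are 1.58% of 3918 above the level filter.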

How the results depend on the processing

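Leaving out an array was not possible with 1 per group. No paired analysis was possible because each group had 1 array and no test was made. The counts of genes at least 2-fold apart changed most with the limits. At 1.5-fold, 816 genes were higher and 723 lower under CAPE, 419 and 320 only under CAPE, 313 and 337 under both treatments, and 296 and 218 only in DMSO. With the other treatment held within 0.25, 16 and 14 were apart only under CAPE and 9 and 8 only in DMSO; within 0.75 these were 55 and 57, and 50 and 43. Without chromosomes 13 and 18, chosen after seeing the data, 12 were lower only in DMSO. With arrays shifted to one median the higher genes were 168 and the lower 150, a share higher of 52.8% against 45.2%, and 62 of the 68 genes apart only under CAPE were still in the class; quantile normalization kept 63. Of 260 named genes, 4 left 2-fold (TNFRSF10A, LAMP1, TNFAIP3 and PLOD2) and 1, ZFP36, passed it with arrays shifted to one median, and 1 left (DNAJB4) and 2 passed (SGMS2 and DSG2) with quantile normalization; none (0) changed sides with no filter, with the mean of probe sets or among the 227 left by the filter at the 50th percentile. No called one (0) changed sign. Of the list medians, 11 moved by more than 0.1 with that filter and 5 with none. Of the genes 2-fold apart under CAPE, 13 had 1 side below the level filter, and 2 of those apart only under CAPE.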

Other observations

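Other genes among those apart only under CAPE stood outside the groups described. PTGR3, a reductase of prostaglandins on chromosome 18, read 3.91 in HK1 and 3.77 in HK1EBV with DMSO and 4.05 and 2.67 with CAPE, a line difference of -1.39. KLF6, a zinc finger transcription factor, read 3.57 and 3.59 with DMSO and 4.70 and 3.53 with CAPE. MSC, a transcriptional repressor, read 3.04 and 2.54, then 4.39 and 3.01. IL7R, the interleukin-7 receptor chain, differed by -1.07 and by -0.46 in DMSO. On the higher side PDE4DIP, a centrosomal and Golgi scaffold, read 5.35 and 5.63 with DMSO and 6.67 in HK1EBV with CAPE, against 5.47 in HK1. SEC23A, FAM177A1 and HEATR5A, all higher in HK1EBV under CAPE by 1.21, 1.19 and 1.10, lie on chromosome 14, as does EGLN3, which was lower. That chromosome held 490 of the 15168 placed genes tested, with 3 of the 33 genes higher and 2 of the 35 lower only under CAPE.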
